A study of Homo sapiens with 3 samples.

Results

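DEAD and DEAH box RNA helicases are enzymes that use ATP to remodel RNA and RNA-protein complexes, and each family is named for the amino acids of its Walker B motif (Asp-Glu-Ala-Asp or Asp-Glu-Ala-His). Most DEAD box enzymes pry apart short stretches of duplex locally, whereas DEAH box enzymes travel along a single strand. Between them they act in transcription, splicing, export, translation, decay and ribosome assembly, and most are expressed in every cell type. The family was taken here as every gene of the footprint count table whose symbol is DDX or DHX followed by a number and, in some cases, the letter A, B or X. This rule found 53 of the 63241 genes listed. Family members named in another way, such as EIF4A1, were not counted among the 53 and are described separately.

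Ribosome profiling (Ribo-seq) counts the mRNA fragments that ribosomes protect from nuclease, here in HEK293T, a line of human embryonic kidney origin in which SV40 large T antigen binds and inactivates endogenous p53. The 3 groups expressed wt p53 (WT), G245S p53 or R273H p53, the mutants being hotspot substitutions in the DNA-binding domain, and the question was whether footprints on helicase mRNAs differed with the p53 construct. Each group is 1 deposited sample, described by the sources as a stable line made with lentivirus under puromycin, although the genotype label speaks of transient expression and wt p53 is named in the treatment label of both mutants; groups follow the sample titles. Each sample consists of 3 culture dishes, which are the replicates below (n = 3 dishes per group). All dishes received cycloheximide for 2 min at harvest, and micrococcal nuclease was used on the lysates for 30 min (3 U per μg of RNA). The dishes of a group were joined before reverse transcription, so a difference between groups and a difference between pools cannot be told apart, and p-values measure only the spread between dishes of a pool.

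The 9 libraries held 18.7 to 24.6 M counts. Within each group, dish 3 stood apart from dishes 1 and 2: chi-square per degree of freedom was 1.48 to 1.56 for dish 1 against dish 2 and 1.88 to 2.62 for pairs with dish 3. Counts are therefore also given without the 3 libraries of dish 3. Genes typical of this line were present in every library, with VIM at 875 to 997 CPM (counts scaled to a common library size). KRT8 was at 32.4 to 44.5 CPM, KRT18 at 108 to 120 CPM and PAX2 at 5.01 to 8.24 CPM. Of markers of other cell types, the blood cell marker PTPRC was at 0 to 0.163 CPM, CD3E at 0 and the liver marker ALB at 0 to 0.106 CPM. COL1A1, chosen as a fibroblast marker, was present at 25 to 34 CPM, above PAX2. A gene was called when its Benjamini-Hochberg adjusted p in edgeR's quasi-likelihood test was under 0.05 over the 19820 genes with enough counts. All adjusted p-values below come from that test unless another is named, and a fold change is relative to the rest of its library. A higher footprint count can come from more mRNA or from more ribosomes on each mRNA, which cannot be told apart here.

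Sequence around the family motif shows what the family has in common and why some members are hard to tell apart. Codons for Asp-Glu-Ala-Asp lay in frame in 29 of the 36 DDX genes with a coding region and in 1 of 16 DHX genes (DHX29). Codons for Asp-Glu-Ala-His lay in frame in 8 of 16 DHX genes and 1 DDX gene (DDX11), and 13 members had neither. The search did not check position, so a match need not be the Walker B motif. The match of DHX29 starts at codon 1119, whereas the Asp-Glu-Ala-His matches of DHX genes start at codons 173 to 685. Of 20033 human coding regions searched (GENCODE v44 canonical transcripts, coding strand only), 170 (0.849%) held the first motif in frame and 80 (0.399%) the second. The windows below are the 30 coding bases around the motif in GRCh38, 5′ to 3′ on the coding strand, with the motif codons in capitals. They are shown for 2 paralog pairs described below and for members that rose or fell in both mutants.
DDX19A, chr16:70366192-70366221, plus strand: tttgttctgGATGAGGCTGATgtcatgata
DDX19B, chr16:70329399-70329428, plus strand: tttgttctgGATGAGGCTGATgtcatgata
DDX5, chr17:64503236-64503265, minus strand: cttgtccttGATGAAGCAGATagaatgctt
DDX17, chr22:38494934-38494963, minus strand: cttgtattgGACGAAGCTGACagaatgctt
DDX18, chr2:117822183-117822212, plus strand: ctggttattGATGAAGCTGATcgtatcttg
DDX23, chr12:48833415-48833444, minus strand: gtggttctgGATGAGGCAGATaggatgatt
DHX15, chr4:24556314-24556343, minus strand: ataattcttGATGAGGCTCATgagaggaca
DHX37, chr12:124971359-124971388, minus strand: gtgatcatcGACGAGGCCCACgagaggagc

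The windows of DDX19A and DDX19B were identical, and their coding regions matched at 95.3% of aligned bases, so footprints of this pair may be shared out between them by the counting. DDX5 and DDX17 differed at 6 of the 30 bases and matched at 70.7% over the coding region, and DDX39A and DDX39B at 80.0%. Of the 48 members tested, 36 overlapped another annotated gene on either strand, 16 of them on the same strand, and 12 had a pseudogene that bears their name. Whether the counting used strand is not given in the sources used here.

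Almost the whole family carried footprints in these cells. Of the 53 members, 48 passed the filter on low counts. The other 5 were DDX4, DDX25, DDX43, DDX53 and DHX58, whose largest count in any library was 1, 7, 1, 2 and 8; the first 4 are known from the germ line or from tumors that express germ line genes, and DHX58 encodes the RNA sensor LGP2. DDX12B, annotated as a pseudogene related to DDX11, passed with 4.46 to 5.88 CPM, and reads of DDX11 could be assigned to it. The innate immune gene DDX60 had the lowest mean count of those tested (69.0) and DDX5 the highest (25955.5). Of the scaled library totals used for CPM, the family as a whole took 1.086% to 1.113% in WT, 1.129% to 1.156% in G245S and 1.119% to 1.148% in R273H. In these ranges the mutants lay above WT in every dish.

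**Figure D1:**
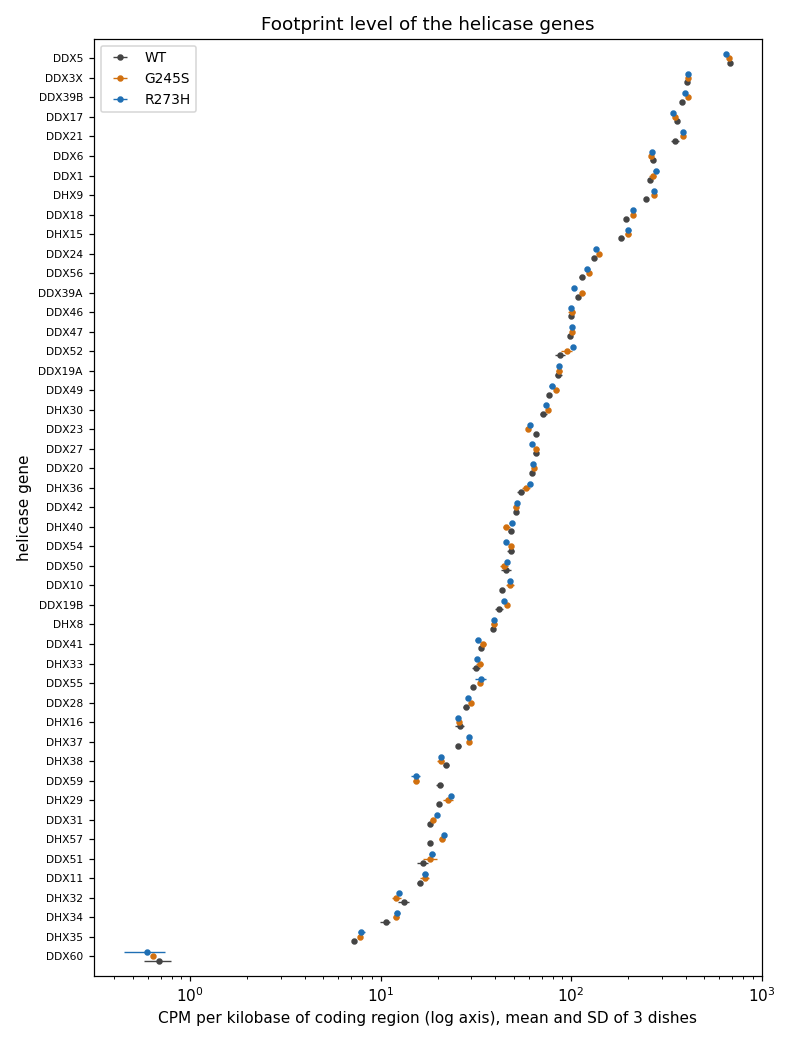
Footprint level of 47 helicase genes with a coding region, as CPM per kilobase of coding region on a log axis; points are the mean and bars the SD of 3 dishes in each group. Levels ran from 0.684 for DDX60 to 681 for DDX5 in WT, and the groups lay close to each other for every gene.

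Per kilobase of coding region, levels in WT had a median of 51.6 CPM per kb over 47 members. DDX5, a coactivator of transcription that also serves in microRNA processing, led with 681 ± 16.6 CPM per kb (SD, n = 3 dishes). It was followed by DDX3X, which assists translation initiation, with 406 ± 6.01 CPM per kb, and by DDX39B, a core factor of splicing and mRNA export, with 383 ± 10.2 CPM per kb. DDX17 (358 ± 8.33 CPM per kb) and DDX21 (352 ± 15.2 CPM per kb) differed by less than the SD of DDX21. DDX6, DDX1 and DHX9 completed the 8 members above 200 CPM per kb. A further 31 members lay between 20 and 200 CPM per kb, and 8 lay below 20, among them DHX35 with 7.26 CPM per kb. The plot of levels per kilobase shows that this ladder spans far more than any difference between groups.

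Against WT, more helicase genes rose than fell in both mutants, by small amounts. In G245S, 18 of 48 members (37.5%) were called, 16 higher and 2 lower, where 24.7% of all genes tested were called, 12.6% higher and 12.1% lower. In R273H, 19 members (39.6%) were called, 15 higher and 4 lower, where 28.8% of all genes were called, 14.2% higher and 14.6% lower. Over the 48 members the log2 fold change had a median of 0.058 for G245S and 0.029 for R273H, against -0.001 and -0.002 over all genes, with 35 and 34 members above 0. Helicase genes have high counts, which makes calls more frequent. Among genes that averaged 1000 counts or more, 46.5% were called in G245S (27.4% higher, 19.0% lower) and 51.8% in R273H (27.8% higher, 24.0% lower). Of the 38 members at that level, 42.1% were called in each mutant. In G245S these were 39.5% higher against 2.63% lower, and in R273H 34.2% against 7.89%. The share of members called was below that of equally abundant genes in both mutants and the share higher was above it, a difference for which no test was made. Without dish 3 of each group, 19 and 18 members were called, and the share of all genes called in that fit is not given here. Members that were not called had log2 fold changes of -0.13 to 0.13 in G245S (30 members) and -0.19 to 0.12 in R273H (29 members), and the 95% confidence interval stayed within a 1.2-fold change for 28 and 26 of them. Both comparisons use the same WT dishes, so the values of the 2 mutants are given side by side and are not independent of each other.

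**Figure D2:**
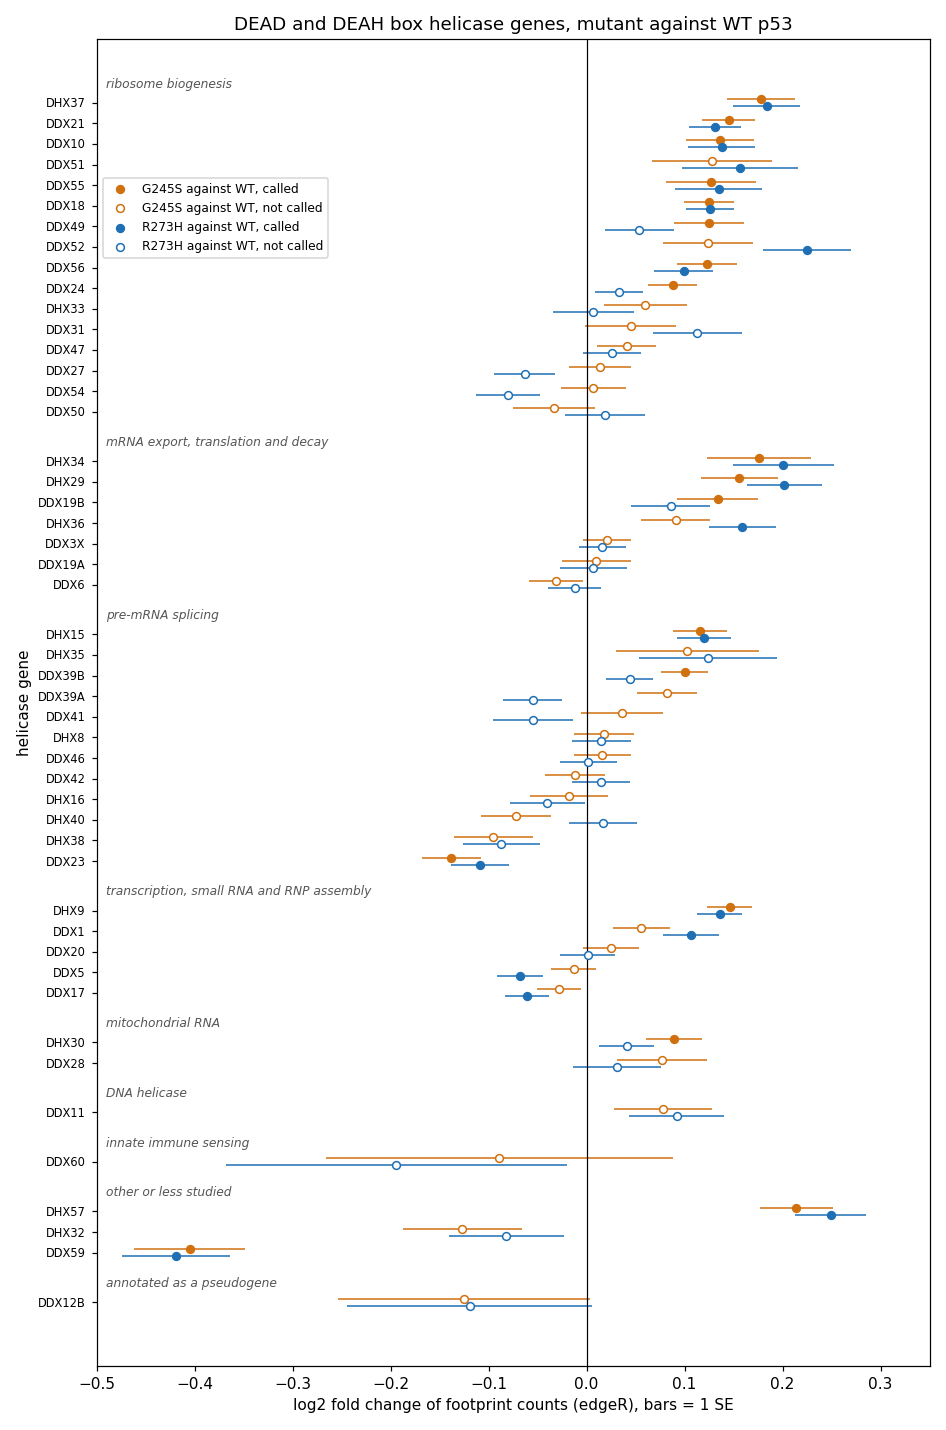
Log2 fold change of footprint counts of 48 helicase genes in G245S and R273H against WT, grouped by role; bars are 1 SE of the edgeR fit, filled points were called and open points were not. All 16 calls among ribosome biogenesis helicases lie to the right of 0, and DDX59 lies farthest to the left at -0.41 and -0.42.

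Helicases of ribosome biogenesis are the largest role among the members. These enzymes act mainly in the nucleolus, where they release small nucleolar RNAs and refold ribosomal RNA in precursors of both subunits. Of 16 members with this role, 8 rose and none fell in G245S, and 8 rose and none fell in R273H, with median log2 fold changes of 0.12 and 0.11. The 8 of 16 called in each mutant compare with 24.7% and 28.8% of all genes and with 46.5% and 51.8% of genes that averaged 1000 counts or more, so the share called was close to that of abundant genes. Calls in both mutants were made for 6 genes, DHX37, DDX21, DDX10, DDX18, DDX55 and DDX56. DDX49 and DDX24 were called in G245S, and DDX52 and DDX51 in R273H.

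DHX37, which acts in maturation of the small subunit, gave the largest increase of this role that was called in both mutants. It measured 91.3, 88.9 and 86.5 CPM in WT, 102, 101 and 98.5 CPM in G245S and 99.8, 104 and 99.6 CPM in R273H. No mutant dish overlapped WT, and both mutants gave a log2 fold change of 0.18 (adjusted p = 0.000336 in G245S, SE 0.0351, and 0.00015 in R273H, SE 0.0343). DDX21, a nucleolar helicase that links ribosomal RNA transcription with processing, measured 807, 804 and 867 CPM in WT, 901, 910 and 928 CPM in G245S and 895, 889 and 930 CPM in R273H. WT dish 3 was the highest of its group but remained below all mutant dishes, with log2 fold changes of 0.14 and 0.13 (adjusted p = 0.000195 and 0.000445). DDX18, which is needed for the large subunit, rose from 384, 393 and 397 CPM in WT to 421, 426 and 434 CPM in G245S and 424, 419 and 438 CPM in R273H. Its dishes did not overlap either (log2 fold changes 0.12 and 0.13, adjusted p = 0.000412 and 0.000289).

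DDX10 rose from 114 ± 2.47 CPM (SD, n = 3 dishes) to 125 ± 6.05 and 126 ± 1.63 CPM, with log2 fold changes of 0.14 in both mutants (adjusted p = 0.00449 and 0.00281). DDX56 rose from 187 ± 5.63 CPM to 203 ± 3.66 CPM in G245S (log2 fold changes of the mutants 0.12 and 0.099, adjusted p = 0.00305 and 0.0128). DDX55 rose from 54.9 ± 1.09 CPM to 60.0 ± 1.27 and 60.3 ± 3.74 CPM (log2 fold changes 0.13 and 0.14, adjusted p = 0.0405 and 0.0228). DDX52 reached the largest log2 fold change of the role in R273H, 0.23 (adjusted p = 0.00145), where dishes gave 180, 183 and 187 CPM against 149, 155 and 167 CPM in WT. In G245S it measured 164, 164 and 183 CPM, overlapping WT dish 3, and was not called (log2 fold change 0.12, adjusted p = 0.063), but it was called there under 10 of 19 alternatives, among them DESeq2 (adjusted p = 0.0434) and removal of length and GC trends (0.00107). Several of these calls were lost when any 1 of several libraries was left out. DDX55 was not called in G245S without WT dish 1, 2 or 3, G245S dish 2 or 3, or R273H dish 1 (adjusted p = 0.052 to 0.134), nor in R273H without WT dish 1 or 3 or R273H dish 3 (0.0625 to 0.17), nor by DESeq2 in either mutant (0.132 and 0.0851). DDX56 was not called in R273H without WT dish 2 (adjusted p = 0.0743) or R273H dish 2 (0.0973).

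DDX24 and DDX49 were called in G245S (log2 fold changes 0.088 and 0.12, adjusted p = 0.00933 and 0.00989), where R273H gave 0.033 and 0.054 (adjusted p = 0.342 and 0.271). The call of DDX24 was lost without WT dish 2 (adjusted p = 0.053) and that of DDX49 without G245S dish 2 (adjusted p = 0.0589). DDX49 was called in R273H too once length and GC trends were removed (log2 fold change 0.085, adjusted p = 0.0183). DDX51 was called in R273H (log2 fold change 0.16, adjusted p = 0.0476) and measured 0.13 in G245S (adjusted p = 0.133, or 0.0196 without G245S dish 3). Its call was lost without WT dish 2 or 3, G245S dish 2, or R273H dish 2 or 3 (adjusted p = 0.0548 to 0.229) and by DESeq2 (0.146). The other members of this role, DDX27, DDX31, DDX47, DDX50, DDX54 and DHX33, were not called in either mutant; DDX54 gave log2 fold changes of 0.007 and -0.080, and DDX50, the paralog of DDX21, gave -0.033 and 0.019.

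**Figure D3:**
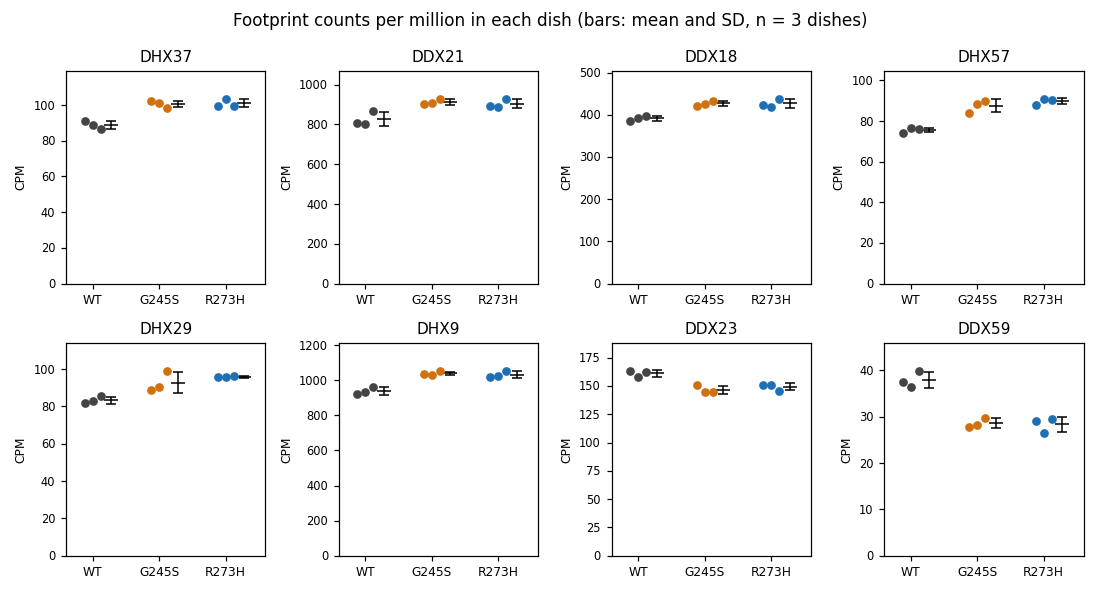
Footprint counts as CPM (axes from 0) in each of 3 dishes of WT, G245S and R273H for 8 helicase genes called in both mutants; the bar beside the points is the mean and SD. Mutant dishes lie above WT for DHX37, DDX21, DDX18, DHX57, DHX29 and DHX9 and below WT for DDX23 and DDX59, without overlap.

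Among helicases of mRNA export, translation and decay, 3 of 7 (42.9%) rose and none fell in each mutant, near the share called among abundant genes given above. DHX29, which helps ribosomes scan structured 5′ leaders, measured 81.6, 83.0 and 85.3 CPM in WT, 88.7, 90.4 and 99.1 CPM in G245S and 95.6, 95.5 and 96.2 CPM in R273H (log2 fold changes 0.16 and 0.20, adjusted p = 0.00382 and 0.000186). DHX34, an RNA helicase of nonsense-mediated decay, rose from 36.5 ± 2.20 CPM (SD, n = 3 dishes) to 41.2 ± 1.51 and 41.9 ± 1.68 CPM (log2 fold changes 0.18 and 0.20, adjusted p = 0.0153 and 0.00407), although in G245S it was not called without WT dish 3 (adjusted p = 0.0868) or G245S dish 2 (0.0847), or by DESeq2 (0.0664). DHX36, which unwinds G-quadruplexes, was called in R273H, with 181, 180 and 190 CPM against 161, 160 and 172 CPM in WT (log2 fold change 0.16, adjusted p = 0.000844). In G245S it measured 177, 166 and 182 CPM, overlapping WT (log2 fold change 0.091, adjusted p = 0.057), but it was called under 9 of 19 alternatives, among them upper-quartile scaling (adjusted p = 0.035) and removal of length and GC trends (0.00702).

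DDX19B, which releases mRNA at the nuclear pore, was called in G245S (log2 fold change 0.13, adjusted p = 0.017; 0.086 and adjusted p = 0.113 in R273H), while its near-identical neighbor DDX19A was not (0.010 and 0.007). The call of DDX19B was lost without WT dish 2 (adjusted p = 0.128) and by DESeq2 (0.0709). DDX3X measured 806 ± 11.9 CPM (SD, n = 3 dishes), 818 ± 21.6 CPM and 815 ± 18.0 CPM in WT, G245S and R273H, a log2 fold change of 0.021 (95% confidence interval -0.028 to 0.071) and 0.016 (-0.033 to 0.065). The sign of its R273H value turned (-0.007) once trends in coding length and GC content were removed. DDX6, a helicase of mRNA silencing and decay, measured 389 ± 11.1, 381 ± 10.2 and 386 ± 9.01 CPM (log2 fold changes -0.031 and -0.012, adjusted p = 0.445 and 0.793). Its R273H value was 0.004 under upper-quartile scaling.

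Of 12 splicing helicases, 2 were higher and 1 was lower in G245S (25.0% called, beside 24.7% of all genes), and 1 was higher and 1 lower in R273H (16.7%, beside 28.8%). DHX15, which takes spent spliceosomes apart, measured 425, 443 and 447 CPM in WT, 477, 460 and 489 CPM in G245S and 474, 464 and 492 CPM in R273H, with no overlap (log2 fold changes 0.12 in both, adjusted p = 0.00251 and 0.00148). DDX23, which prepares the spliceosome for activation, went the other way, from 163, 158 and 162 CPM in WT to 151, 145 and 144 CPM in G245S and 151, 151 and 146 CPM in R273H. Every mutant dish was below every WT dish, with log2 fold changes of -0.14 and -0.11 (SE 0.0303 and 0.0296, adjusted p = 0.00107 and 0.00589). No annotated gene overlaps DDX23. DHX38, another spliceosome helicase, had log2 fold changes of -0.095 and -0.087 that did not pass the test (adjusted p = 0.0831 and 0.0955).

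DDX39B was called in G245S, with 530, 524 and 528 CPM against 494, 504 and 478 CPM in WT (log2 fold change 0.10, adjusted p = 0.00226). R273H dishes gave 504, 505 and 512 CPM, just above the highest WT dish, and were not called (log2 fold change 0.044, adjusted p = 0.168) unless length and GC trends were removed (0.057, adjusted p = 0.0285). The locus contains the readthrough gene ATP6V1G2-DDX39B and 2 small nucleolar RNA genes on the same strand. Its difference between the mutants, 0.056, did not pass the test either (adjusted p = 0.228).

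Of the 5 helicases of transcription, small RNA and ribonucleoprotein assembly, 1 rose in G245S (20% called, beside 24.7% of all genes). In R273H, 2 rose and 2 fell (80% called, beside 28.8% of all genes), and the 2 lower calls changed with the processing, as described below. DHX9, which resolves RNA-DNA hybrids and double-stranded RNA, measured 919, 934 and 963 CPM in WT, 1034, 1031 and 1051 CPM in G245S and 1017, 1024 and 1054 CPM in R273H. The groups did not overlap, and with log2 fold changes of 0.15 and 0.14 (SE 0.0229 and 0.0228, adjusted p = 1.88e-05 and 3.86e-05) DHX9 was among the members with the smallest error. DDX1, part of the tRNA ligase complex, was called in R273H (log2 fold change 0.11, adjusted p = 0.00587) and gave 0.056 in G245S (adjusted p = 0.168), where it was called with length and GC trends removed (adjusted p = 0.0343).

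DDX5 and DDX17, paralogs that act as coactivators for several transcription factors, p53 among them, were the 2 other members called lower in R273H. DDX5 measured 1235, 1239 and 1290 CPM in WT, 1241, 1221 and 1267 CPM in G245S and 1184, 1185 and 1223 CPM in R273H. R273H dishes lay below WT and G245S overlapped it, with log2 fold changes of -0.068 and -0.013 (adjusted p = 0.0276 and 0.733). DDX17 measured 766, 779 and 802 CPM in WT, 777, 763 and 762 CPM in G245S and 744, 749 and 759 CPM in R273H (log2 fold changes -0.061 and -0.028, adjusted p = 0.0437 and 0.404 in R273H and G245S). These were the smallest called changes of the family, and both calls changed with single libraries and with the scaling. Over all 19 alternatives DDX5 in R273H ranged from -0.098 to -0.045 and lost its call under 6 of them. DDX17 in R273H ranged from -0.077 to -0.040 and lost its call under 14. DDX5 was not called without WT dish 3 (-0.045, adjusted p = 0.141), R273H dish 1 (0.123) or R273H dish 2 (0.112), and DDX17 stayed called in 1 of 9 such fits, the one without WT dish 1 (adjusted p = 0.0501 to 0.194 in the others). Under upper-quartile scaling neither was called (adjusted p = 0.119 for DDX5 and 0.17 for DDX17), nor with no low-count filter (0.12 and 0.228), and DDX17 was not called under RLE scaling (0.0594) or in a fit of the 6 libraries compared (0.0669).

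**Figure D4:**
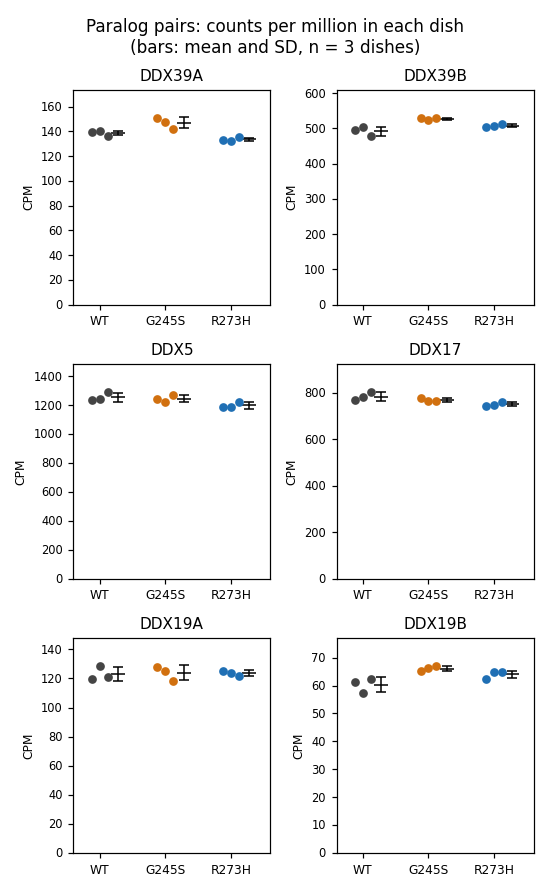
Footprint counts as CPM (axes from 0) in each of 3 dishes of WT, G245S and R273H for the paralog pairs DDX39A and DDX39B, DDX5 and DDX17, and DDX19A and DDX19B; the bar beside the points is the mean and SD. DDX39A is the gene in which G245S lies above WT and R273H below it.

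The members with no well-defined role held the largest changes in both directions. DDX59, a gene mutated in an orofaciodigital syndrome, fell from 37.5, 36.4 and 39.9 CPM in WT to 27.8, 28.3 and 29.8 CPM in G245S and 29.1, 26.6 and 29.5 CPM in R273H. The highest mutant dish was far below the lowest WT dish, with log2 fold changes of -0.41 and -0.42 (SE 0.0567 and 0.055, adjusted p = 3.5e-06 and 9.99e-07). Tested against a minimum fold change of 1.2 (glmTreat), DDX59 in R273H was the only call left in the family (adjusted p = 0.0293, and 0.0682 in G245S). DDX59 (chr1:200623896-200669907, minus strand) overlaps the antisense gene DDX59-AS1. DHX57, a little-studied DEAH box protein, rose from 74.3, 76.4 and 76.0 CPM in WT to 84.1, 88.5 and 90.1 CPM in G245S and 88.1, 91.1 and 90.3 CPM in R273H, without overlap (log2 fold changes 0.21 and 0.25, adjusted p = 7.2e-05 and 4.84e-06). The third gene, DHX32, was not called (-0.13 and -0.082).

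Of the 2 mitochondrial helicases, DHX30, which assists mitochondrial ribosome assembly, was called in G245S, with 270, 272 and 274 CPM against 267, 254 and 246 CPM in WT (log2 fold change 0.089, adjusted p = 0.0216), and R273H gave 263, 268 and 258 CPM (0.041, adjusted p = 0.299). WT dish 1 lay close to the lowest G245S dish, and the call was lost without WT dish 2 (adjusted p = 0.0732), WT dish 3 (0.0931) or G245S dish 2 (0.0564). DDX28 was not called. DDX11, a DNA helicase of sister chromatid cohesion, gave 0.078 and 0.092 and was not called. DDX60 gave -0.089 and -0.19 with 95% confidence intervals of -0.45 to 0.27 and -0.55 to 0.16, so that at its depth of 69.0 counts on average a change of the size seen for DDX59 was within the interval of both mutants.

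Between the mutants themselves, 1 of 48 members (2.08%) was called, where 2.59% of all genes were, 1.86% higher and 0.732% lower in G245S. That gene was DDX39A, the paralog of DDX39B, with 151, 148 and 142 CPM in G245S, 133, 132 and 135 CPM in R273H and 139, 140 and 136 CPM in WT. WT lay between the mutants, which did not overlap each other. The log2 fold change of G245S against R273H was 0.14 (SE 0.0302, adjusted p = 0.0107), made up of 0.082 (adjusted p = 0.0514, or 0.0112 with length and GC trends removed) and -0.055 (adjusted p = 0.187) against WT. It was not called without G245S dish 1 (adjusted p = 0.101), G245S dish 2 (0.0683), R273H dish 1 (0.0644) or R273H dish 2 (0.0653), and 3 members were called without dish 3 of each group. For the other 47 members the log2 fold change between mutants was -0.10 to 0.11, and for 45 of them its 95% confidence interval stayed within a 1.2-fold difference. DDX5 was 1 of these 47 (0.054, adjusted p = 0.235), but it was called between the mutants under 4 of 19 alternatives. With length and GC trends removed DDX5 gave 0.089 (adjusted p = 0.00434), and without dish 3 of each group 0.057 (adjusted p = 0.0485).

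Footprint composition of the libraries moved with the groups. Across 10883 genes, Spearman's rho of a gene's centered level with coding length was -0.177 to -0.140 in WT dishes, -0.012 to 0.116 in G245S dishes and 0.139 to 0.196 in R273H dishes. Helicase genes have long coding regions, with a median of 2234 nt over 46 members against 1398 nt over those 10883 genes. Over the members, coding length and log2 fold change had a rho of 0.11 for G245S and 0.19 for R273H, beside 0.15 and 0.21 over all genes; these points share libraries and are given as a description. Between the mutants, the log2 fold change moved with the GC content of the coding region, with a rho of 0.48 over the 46 members and 0.43 over all genes. DDX39A, the member called there, has 56.4% GC, against a median of 49.2% over the members, and with length and GC trends removed its difference was 0.11 (adjusted p = 0.0137). The 2 longest coding regions in the plot by coding length belong to DHX57 (4158 nt) and DHX29. With trends in length and GC content removed from each library, 23 members were called in each mutant. The share of all genes called under that setting is not given here, so this count need not be a stronger result for the family. The log2 fold changes with these trends removed were 0.22 and 0.21 for DHX57, 0.16 and 0.15 for DHX29 and -0.40 and -0.46 for DDX59.

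**Figure D5:**
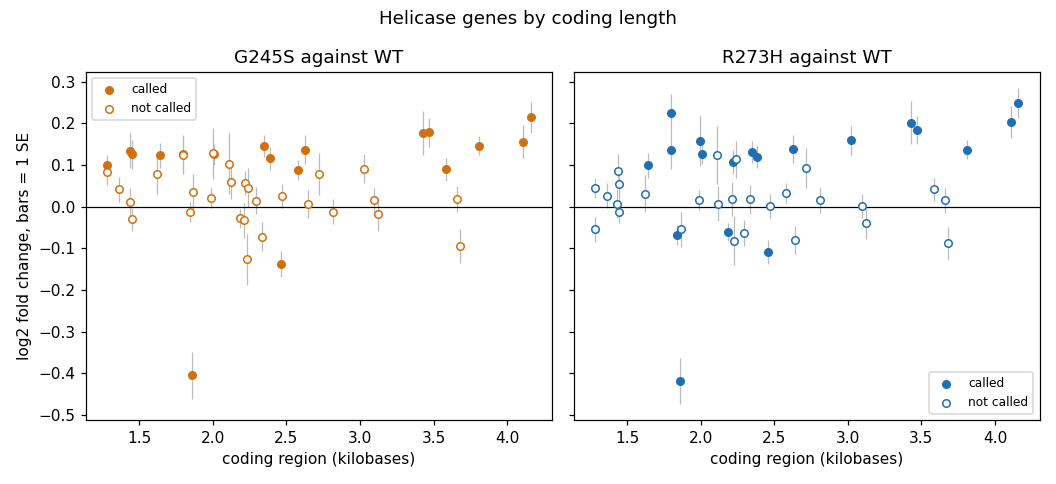
Log2 fold change of helicase genes against coding length in kilobases for G245S (left) and R273H (right) against WT; each point is 1 of 46 genes that averaged 100 counts or more, bars are 1 SE, and filled points were called. Called genes are found at all lengths, and the 2 longest genes lie above 0.

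Other helicases outside the symbol rule were compared as a list of 25 genes, most of them RNA helicases, of which 22 were tested. In each mutant 9 rose and 4 fell (59.1% called, beside 24.7% and 28.8% of all genes and 46.5% and 51.8% of genes that averaged 1000 counts or more), with median log2 fold changes of 0.033 and 0.038. The largest change was in ASCC3, a helicase that rescues collided ribosomes, which fell from 131 ± 5.85 CPM (SD, n = 3 dishes) to 77.9 ± 2.48 and 82.8 ± 2.01 CPM (log2 fold changes -0.76 and -0.67, adjusted p = 2.06e-15 and 1.58e-14). ZNFX1 (-0.34 in both) and the DNA helicase HELQ (-0.25 in both) also fell. The exosome helicases MTREX (0.22 and 0.29) and SKIC2 (0.25 and 0.24), the mitochondrial SUPV3L1 (0.28 and 0.34), the splicing factor AQR (0.17 and 0.25) and DICER1 (0.18 in both) rose. EIF4A1, the translation initiation helicase of the DEAD box family, rose in G245S from 1589 ± 10.1 to 1714 ± 34.2 CPM (log2 fold change 0.11, adjusted p = 0.00024) and measured 1639 ± 5.57 CPM in R273H (0.044, adjusted p = 0.115). Between the mutants, 1 gene of the list was called, YTHDC2, which was lower in G245S.

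Proteins that bind or activate these helicases did not lean one way. Of 57 genes, 12 rose and 12 fell in G245S, and 15 rose and 10 fell in R273H (42.1% and 43.9% called, beside 24.7% and 28.8% of all genes and 46.5% and 51.8% of genes that averaged 1000 counts or more), with median log2 fold changes of -0.019 and 0.002. THOC2, a scaffold of the export complex that contains DDX39B, rose from 201 ± 10.6 CPM (SD, n = 3 dishes) to 253 ± 10.7 and 271 ± 5.87 CPM (log2 fold changes 0.33 and 0.43, adjusted p = 1.49e-07 and 1.27e-09). GEMIN4 (0.34 and 0.24) and GEMIN5 (0.28 and 0.32), partners of DDX20 in the SMN complex, rose as well, as did NOL6 (0.22 and 0.17), a protein of small subunit precursors, while DDX20 itself gave 0.025 and 0.001 and was not called. PDCD4, an inhibitor of EIF4A1, fell from 302 ± 7.47 CPM to 240 ± 6.71 and 248 ± 4.29 CPM (log2 fold changes -0.33 and -0.28, adjusted p = 3.86e-10 and 5.52e-09). LSM14B, a partner of DDX6, and the G-patch proteins GPATCH11 and GPKOW also fell, by 0.17 to 0.23 on the log2 scale. Between the mutants, EIF4G1 (0.088) and ALYREF (0.10) were called higher in G245S.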

How the data were processed

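Per the labels and the methods, the authors removed ribosomal RNA reads with SortMeRNA, trimmed adapters with Trim Galore, used UMI-tools where applicable and aligned reads to GRCh38 with STAR. The deposited table holds expected counts (estimated counts per gene, not normalized by the authors); the counting tool, annotation and strand setting are not given in the sources used here. Expected counts were rounded, and 9 libraries (18.7 to 24.6 M counts) were fitted together in edgeR 4.0.16 (R 4.3.3) with TMM scaling (factors 0.987 to 1.01), filterByExpr, glmQLFit with robust estimation and two-sided glmQLFTest, group as the only term and 6 residual degrees of freedom. The biological coefficient of variation was 2.58%. CPM use TMM-scaled totals and are given as mean ± SD. Depth sets the precision of each value through the SE of the fit.

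Of 63241 genes, 62666 (99.09%) matched GENCODE 44 by identifier, which supplied coordinates and coding regions. Levels per kb divide CPM by the coding length of the canonical transcript. The members and gene lists were chosen with earlier results of these data known. Named genes were 8 members listed by name, the members called against WT (at most 22, by mean size of both log2 fold changes), those called between mutants, those with the highest and lowest mean count, those not tested, and at most 8 genes of each other list that were called in both mutants. Other genes named (EIF4A1, YTHDC2, EIF4G1, ALYREF, and members that were not called) were chosen after their values were seen. Alternatives were RLE and upper-quartile scaling, no filter, DESeq2 1.42.0, glmTreat, fewer libraries, a replicate block, removal of length and GC trends, and each dish left out. The fit was tested on simulated data with known fold changes, for a simulated G245S against WT. It recovered 9 of 50 genes changed 1.1-fold, 32 of 50 changed 1.2-fold, 46 of 50 changed 1.5-fold and 49 of 50 changed 2-fold. There were 8 false calls over 19820 genes. Changes of 1.1-fold were thus mostly missed in the simulation. Its recovery is not given by count level, so it need not hold for helicase genes, which have high counts. In G245S, DDX24 (log2 fold change 0.088) and DHX30 (0.089) were called at less than 1.1-fold, and DHX36 (0.091) was not called. A member that was not called may still have changed by 1.1-fold where its confidence interval reaches that far. In G245S the interval of DDX51 (0.002 to 0.253) did, and that of DDX3X (-0.028 to 0.071) did not.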

Additional observations from a re-analysis of the deposited data

Results flagged for a closer look

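DDX39A had a log2 fold change of 0.14 (0.137) in G245S against R273H (adjusted p = 0.0107, edgeR's quasi-likelihood test) and was picked out because the effects of the 2 mutants differed by a direct test of the difference. All 3 G245S dishes were above, and all 3 R273H dishes below, the 3 WT dishes. The difference was 0.11 to 0.17 over all alternatives, and its adjusted p was 0.000462 to 1.0.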

How the results depend on the processing

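Under other scalings, no filter, DESeq2, fewer libraries and removal of length and GC trends, 16 to 23 members were called in G245S and 17 to 23 in R273H, against 18 and 19 as reported. Shares of all genes called under each alternative are not given here, so a larger count need not be a stronger result for the family. Of the reported calls, DESeq2 kept 15 and 17 (DDX19B, DHX34 and DDX55 lost in G245S, DDX51 and DDX55 in R273H), and upper-quartile scaling kept 18 and 17 (DDX5 and DDX17 lost in R273H). Testing for changes beyond 1.2-fold (glmTreat) ended nearly all of them: 0 members in G245S, 1 in R273H and 0 between the mutants, 0 ribosome biogenesis members in each mutant, 1, 1 and 0 other helicases, and 0, 1 and 0 cofactors. Between the mutants, counts were 2 members with no low-count filter, 2 members, 2 other helicases and 1 cofactor with length and GC trends removed, and 3, 2 and 5 without dish 3 of each group, an alternative chosen after seeing the data. Leaving out 1 dish in turn gave 14 to 19 members in G245S and 15 to 18 in R273H, and between the mutants 0 to 2 members, 0 to 2 other helicases and 0 to 4 cofactors. Of 1235 fold changes under an alternative, 1090 kept direction and side of the threshold, 92 lost the call, 38 gained it and 15 turned in sign, all of them values that were not called.

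Values that turned in sign were DDX6 in R273H (0.004 with upper-quartile scaling), DDX3X between the mutants (-0.002 with no low-count filter) and in R273H (-0.007 with length and GC trends removed), DDX6 between the mutants (0.015 with the trends removed) and DDX60 in G245S (0.027 without dish 3 of each group). With 1 dish left out, DDX5 in G245S ranged from -0.025 to 0.011, DDX60 in G245S from -0.207 to 0.032, DDX6 in R273H from -0.029 to 0.015, DDX3X between the mutants from -0.013 to 0.027 and DDX6 between them from -0.040 to 0.000. The cause was not tested.

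With dish number as a replicate block, 24 members were called in G245S and 23 in R273H, and between the mutants 6 members, 5 other helicases and 8 cofactors. These counts too are given without the share of all genes called in the same fit. With the block and with trends removed together, the counts between the mutants were 3 members and 2 other helicases, with DDX3X at -0.007 in R273H and DDX6 at 0.014 between the mutants. Dishes that share a number had deviations that correlated at 0.044 to 0.234, not above 0.1 in every pair. Dishes of different groups with different numbers correlated at -0.188 to 0.059. The ranges overlapped slightly, as R273H dish 2 correlated better with WT dish 1 (0.059) than with WT dish 2 (0.044). Nothing in the labels pairs the dishes, and the reported fit left their number out.

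Depth limits DDX60 most: at 69.0 counts on average, its log2 fold changes had SEs of 0.177 and 0.174 in G245S and R273H.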
